A study of Mus musculus with 8 samples.

Results

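Hypoxia-inducible and glycolytic genes were followed in tubuloids, tubule-like structures that form in Matrigel from fragments of postnatal mouse kidney. The 45 genes were picked by name from 24063 gene symbols in the count tables, with earlier results of these data known. They comprised 6 genes of the hypoxia-inducible factors (HIFs) and their oxygen sensors, 18 other HIF targets, 3 transporters of glucose or lactate, 15 glycolytic enzymes and 3 regulators of glycolysis. RNA of 8 libraries was compared, 4 from cultures treated with doxycycline (DOX) and 4 from cultures given the vehicle dimethyl sulfoxide (DMSO). Every culture, DMSO included, carried Pkd2 fl/fl, Pax8rtTA, TetOCre and mTmG and came from kidneys labelled as postnatal day 7 to 10, although the methods gave a range that starts earlier. Pkd2 fl/fl denotes floxed alleles of the gene for polycystin-2, a cation channel mutated in autosomal dominant polycystic kidney disease. Pax8rtTA is a doxycycline-dependent activator under a promoter active in renal epithelium, TetOCre the Cre recombinase it switches on, and mTmG a membrane reporter that turns from red to green after recombination. The methods describe plating with a pulse of glial-derived neurotrophic factor, and culture in medium with serum and other growth factors. Treatment with doxycycline or DMSO began on culture day 3 and lasted 3 days, and RNA was taken on day 7. Recombination was limited to epithelial cells and was incomplete in them, and whether a culture pooled several animals was not given in the sources used here.

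When oxygen is plentiful, prolyl hydroxylases of the Egln family mark HIF alpha subunits for destruction through the von Hippel-Lindau protein. When oxygen is scarce, the alpha subunits escape this, pair with Arnt and bind the core letters ACGTG or GCGTG near their targets. Those targets include growth factors, mitophagy proteins and nearly the whole glycolytic pathway, so that cells can make ATP with less oxygen. The kidney tubule is known for uneven oxygen supply, and glycolysis is a known subject in polycystic kidney disease. The study compared DOX with DMSO to find early transcript changes after induction of Cre, and the question for these genes was whether glycolytic enzymes moved with other HIF targets such as Ankrd37.

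Sequence before the start of 4 members is shown, because these 4 had the largest or most regular differences described below and each carries the core letters that HIFs bind. Pdk1 and Ankrd37 were the members whose groups did not overlap, and Bnip3 and Slc16a3 the members with the next lowest log2 fold changes after Ankrd37. The stretches come from the RefSeq promoter windows on GRCm38.p6 and end at the base before 1 annotated start of each gene. They lie at chr8:45999851-46000100 on the minus strand for Ankrd37, chr2:71873124-71873223 on the plus strand for Pdk1, chr7:138909507-138909636 on the minus strand for Bnip3 and chr11:120948967-120949066 on the plus strand for Slc16a3. Capitals mark ACGTG or GCGTG read on either strand, the reverse reading being CACGT or CACGC.
Ankrd37: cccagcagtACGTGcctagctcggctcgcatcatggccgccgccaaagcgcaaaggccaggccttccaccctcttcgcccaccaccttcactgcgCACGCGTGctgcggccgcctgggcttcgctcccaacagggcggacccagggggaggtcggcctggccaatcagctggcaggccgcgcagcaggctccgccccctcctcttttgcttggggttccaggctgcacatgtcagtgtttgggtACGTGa
Pdk1: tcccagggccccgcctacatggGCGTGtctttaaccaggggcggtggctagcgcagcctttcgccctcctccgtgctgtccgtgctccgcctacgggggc
Bnip3: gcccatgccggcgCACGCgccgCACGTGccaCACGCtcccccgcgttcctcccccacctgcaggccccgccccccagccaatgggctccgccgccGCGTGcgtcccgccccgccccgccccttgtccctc
Slc16a3: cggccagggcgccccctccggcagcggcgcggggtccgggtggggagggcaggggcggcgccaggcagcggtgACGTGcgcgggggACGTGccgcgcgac

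In the Ankrd37 stretch the 4 matches began at positions -241, -155, -152 and -6, counted from the start, and those at -155 and -152 shared letters. Bnip3 held 5 matches, of which 1 palindromic stretch was read on both strands. The window of 250 bases before to 50 after a start was found for 41 members, and 36 of these (87.8%) held a match in at least 1 window. Across all 27025 genes with such a window 46.7% held one. Counted by window, 46 of 59 member windows (78.0%) and 43.8% of all windows held a match. The member windows were richer in G and C (median 64.7%) than all windows (52.7%), and 64.4% of all windows within the members' middle range of G and C held a match. Among members with a window, matches were found for 15 of 16 other HIF targets and 12 of 15 glycolytic enzymes. Vhl, Car12, Gpi1, Tpi1 and Eno2 had none, and Epas1, Ndrg1, Bhlhe40 and Slc2a3 had no window in the table. A match describes letters only and says nothing of whether a factor was bound.

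Libraries differed before treatment was considered. Counts summed to between 63922677 and 102716313 per library. DMSO 20 and DOX 19 held counts for 13243 and 13599 genes, against 17054 to 17903 in the other 6 libraries, and counts of Xist and of Y-linked genes marked DMSO 15 and DOX 21 as male. Epithelial markers were present in all 8 libraries, with summed levels of 561 to 2429 TPM, a length-scaled abundance, in DMSO and 753 to 1625 in DOX, and 7 of 8 markers stood at 1 TPM or more in each library. Defining proximal tubule markers summed to at most 3.24 TPM. The targeted gene, Pkd2, did not separate the groups: the DMSO libraries held 4813 to 7538 of its normalised counts and the DOX libraries 4136 to 5952 (log2 fold change -0.31; DESeq2 adjusted p = 0.999). Those counts cover the whole transcript and do not isolate the floxed exons.

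Ankrd37 was the one member that DESeq2 called, and edgeR and limma-voom did not call it. This HIF target encodes a small ankyrin repeat protein and lies on chromosome 8 from 45996908 to 46000414 (mm10). Its counts, scaled by DESeq2 size factors as are all normalised counts here, were 2744 in DMSO 3, 388 in DMSO 5, 4276 in DMSO 15 and 490 in DMSO 20. With doxycycline they were 180 in DOX 9, 193 in DOX 12, 257 in DOX 19 and 250 in DOX 21. All 4 DOX libraries lay below all 4 DMSO libraries, yet the DMSO libraries fell into a high pair and a pair close to the DOX range. Means were 1975 ± 1880 in DMSO and 220 ± 39.3 in DOX (SD, n = 4 each), an 8.98-fold lower level with doxycycline. DESeq2 fitted a log2 fold change of -3.17 with an SE of 0.743 and an adjusted p of 0.0228, and the exact two-sided permutation p of 0.0286 was the smallest that 4 against 4 libraries allow. In the edgeR quasi-likelihood test its p was 0.00312 unadjusted and 0.999 adjusted.

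The call of Ankrd37 was not kept in every fit that left out 1 library. Calls required an adjusted p no higher than 0.05 together with a 1.5-fold or larger change, a rule met by 25 of 17011 genes (0.147%). Of these, 11 were lower with doxycycline (0.0647%) and 14 higher (0.0823%), and the members held 1 of the former and 0 of the latter. Without DMSO 15 the log2 fold change of Ankrd37 was -2.45 (DESeq2 adjusted p = 0.0854). Without DOX 9, DOX 12, DOX 19 or DOX 21 the log2 fold change stayed between -3.25 and -3.08 while the adjusted p lay between 0.0554 and 0.0976, and without DMSO 3 the outlier filter of DESeq2 gave none. Without DMSO 5 it was 0.000455 and without DMSO 20 0.00191.

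Of the 45 members, 38 had a log2 fold change below 0 and 7 above 0. The 39 targets and glycolytic genes split 35 to 4, with a median of -0.87, whereas 8761 of 15928 genes with a mean normalised count of at least 10 (55%) lay below 0, with a median of -0.06. Without DMSO 15 the count fell to 28 of 39. An unadjusted DESeq2 p under 0.05 was found for 6 of the 38 targets and glycolytic genes that had a p, all lower with doxycycline. Over all 19268 genes with a p, 476 (2.47%) passed it in that direction and 423 (2.2%) in the other. They were Ankrd37, Bnip3, Higd1a, Slc16a3, Tpi1 and Pdk1, and only Ankrd37 passed the call rule among them. The edgeR test called 0 of the 45 members and 0 of 15562 genes, with 4 members at an unadjusted p under 0.05, all lower (3.06% of all genes, and 1.5% lower), and limma-voom called 0 with 1 member under 0.05 (3.07%). Because cultures were measured in bulk, fewer cells of a type and less RNA per cell cannot be told apart, and the p-values measure only the spread between these cultures.

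**Figure D1:**
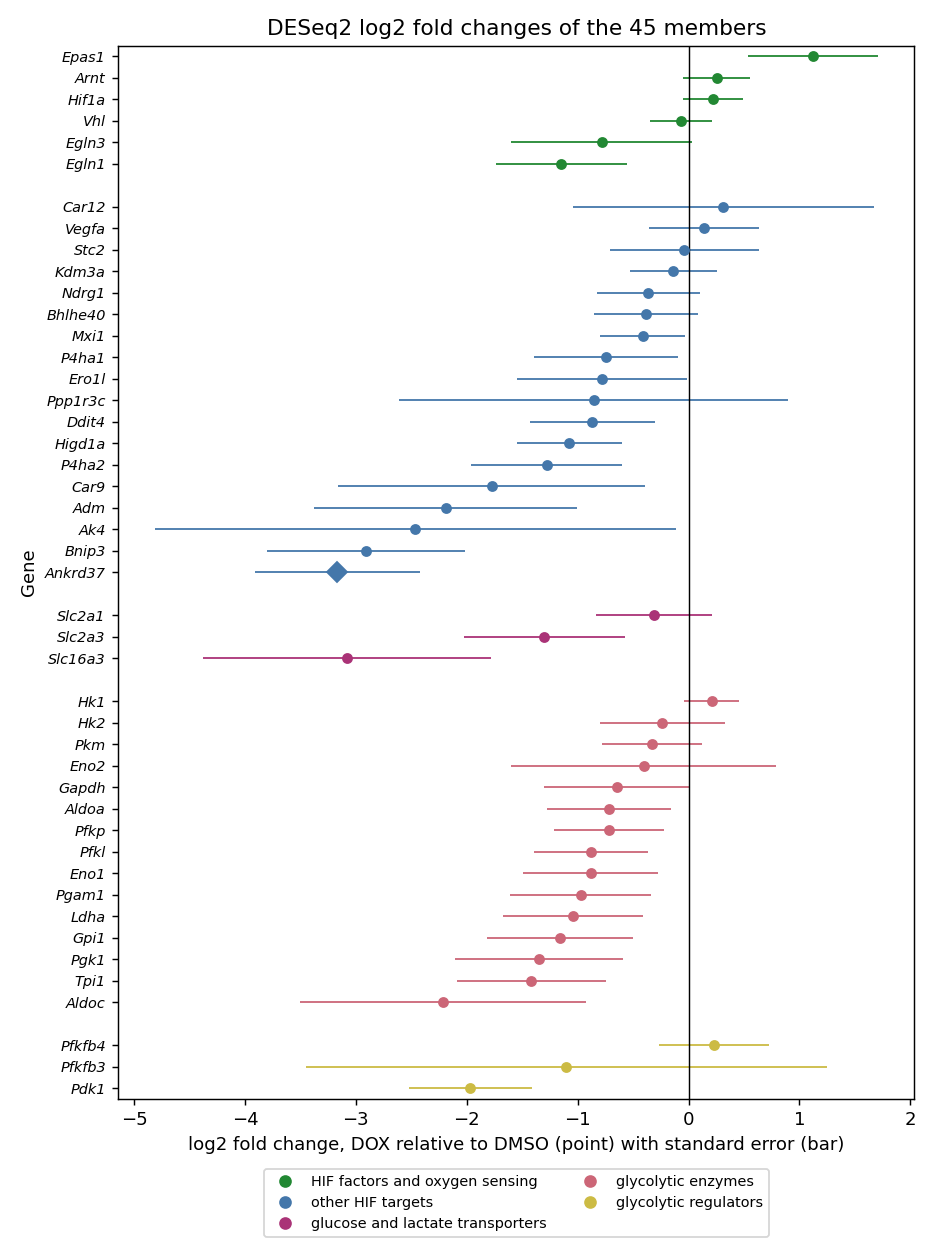
Log2 fold change of DOX relative to DMSO for each of the 45 members, grouped by role, as points with standard error bars from DESeq2 (n = 4 libraries each). The diamond is Ankrd37, the called member at -3.17; of the 45 points 38 lie left of 0, among them 14 of the 15 glycolytic enzymes.

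The oxygen-sensing machinery itself showed no common direction. Hif1a, the most widely used alpha subunit (chromosome 12, 73901324 to 73947554), had normalised counts of 17113, 9349, 18229 and 16025 in DMSO 3, 5, 15 and 20. Its counts in DOX 9, 12, 19 and 21 were 21885, 16506, 15154 and 17279. The groups overlapped almost fully (log2 fold change 0.22, SE 0.27; DESeq2 adjusted p = 0.999). Hif1a stood at 83.5 TPM on average and was the most abundant of the 6 genes on that per-length scale.

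Epas1, the HIF2 alpha subunit (chromosome 17, 86753864 to 86833410), had the smallest p of the members with a fold change above 0. It had 588, 982, 552 and 1511 normalised counts in DMSO 3, 5, 15 and 20, and 552, 1742, 3520 and 2088 in DOX 9, 12, 19 and 21. DOX 9 and DMSO 15 were the lowest libraries and nearly equal, so the groups overlapped (log2 fold change 1.12, SE 0.59; DESeq2 unadjusted p = 0.0567, adjusted p = 0.97). Arnt, the partner of both alpha subunits (chromosome 3, 95434367 to 95497240), had 6205, 3969, 9401 and 5818 normalised counts in DMSO and 8722, 6480, 7161 and 7895 in DOX in the same library order, and its highest and lowest libraries were both DMSO (log2 fold change 0.25). Vhl, which recognises hydroxylated HIF, had a log2 fold change of -0.07 with all 8 libraries within 1.77-fold of each other. Egln1 and Egln3 are oxygen sensors and also HIF targets, and their values resembled those of the targets. Egln1 reached 13088 normalised counts in DMSO 15 and 5060 in DMSO 3 against 1830 to 2803 in the other 6 libraries (log2 fold change -1.15; DESeq2 unadjusted p = 0.0528), and Egln3 ranged from 447 in DMSO 20 to 8179 in DMSO 15 (log2 fold change -0.78). None of the 6 genes passed an unadjusted p of 0.05 in either tool.

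Among the other 17 HIF targets the largest difference was that of Bnip3, a receptor for removal of mitochondria (chromosome 7, 138890836 to 138909506). It had 19295, 3317, 61336 and 2070 normalised counts in DMSO 3, 5, 15 and 20, and 3416, 2279, 2393 and 3386 in DOX 9, 12, 19 and 21. DMSO 20 was the lowest library of all, so the groups overlapped even though their means were 21505 ± 27688 and 2868 ± 617 (SD, n = 4 each). The log2 fold change of -2.91 (SE 0.89) had a DESeq2 adjusted p of 0.257. Without DMSO 20 it was -3.30 (DESeq2 adjusted p = 0.0142) and without DMSO 15 -1.52 (DESeq2 adjusted p = 0.508). It was -2.93 in edgeR, -1.78 in limma-voom and -1.66 as a difference of log2(TPM + 1).

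Vegfa, the angiogenic growth factor (chromosome 17, 46016993 to 46032377), had a log2 fold change above 0, as did Car12. Its normalised counts were 70744, 49183, 171971 and 43752 in DMSO 3, 5, 15 and 20 and 70118, 73291, 90488 and 135688 in DOX 9, 12, 19 and 21. DMSO 15 and DOX 21 were the highest libraries (log2 fold change 0.14; DESeq2 adjusted p = 0.999), and the sign turned without any 1 of DMSO 5, DMSO 20 or DOX 21. It was listed with 9 transcripts, and its 649 TPM summed over them came to 76.8 TPM for the transcript highest on that scale.

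The remaining targets covered several roles and all overlapped between the groups. Higd1a, a mitochondrial protein of the respiratory chain, ranged from 4944 to 18241 normalised counts in DMSO, while DOX libraries held 3384 to 5239 (log2 fold change -1.08; DESeq2 unadjusted p = 0.0225, adjusted p = 0.83). The collagen prolyl hydroxylase subunits P4ha1 and P4ha2 had log2 fold changes of -0.75 and -1.28, and the oxidase Ero1l, which helps form disulfide bonds in the endoplasmic reticulum, -0.78. Ddit4, an inhibitor of mTOR signalling, had -0.87, while the transcriptional repressors Mxi1 and Bhlhe40 had -0.41 and -0.38 and Ndrg1, a stress-responsive protein, -0.36. Both the histone demethylase Kdm3a (-0.14) and the secreted glycoprotein Stc2 (-0.04) lay close to 0.

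Some targets were counted too unevenly for a fold change to say much. The mitochondrial adenylate kinase Ak4 and Ppp1r3c, a glycogen-targeting subunit of protein phosphatase 1, had 0 counts in both DMSO 20 and DOX 19, although Ak4 had 6548 and 10553 normalised counts in DMSO 3 and DMSO 15. The carbonic anhydrase Car9 had 0 counts in DMSO 20 and its relative Car12 in DOX 19, with DOX 21 the highest library for Car12 at 1779 normalised counts. Log2 fold changes were -2.46 for Ak4, -0.86 for Ppp1r3c, -1.78 for Car9 and 0.31 for Car12, with SEs of 1.35 to 2.35. A count of 0 in a library allows up to 3 counts, and this covers counting error only. Adm, the vasodilator peptide adrenomedullin, reached 10264 normalised counts in DMSO 15 against 95.7 to 1518 elsewhere, and DESeq2 gave it no p because of that library.

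**Figure D2:**
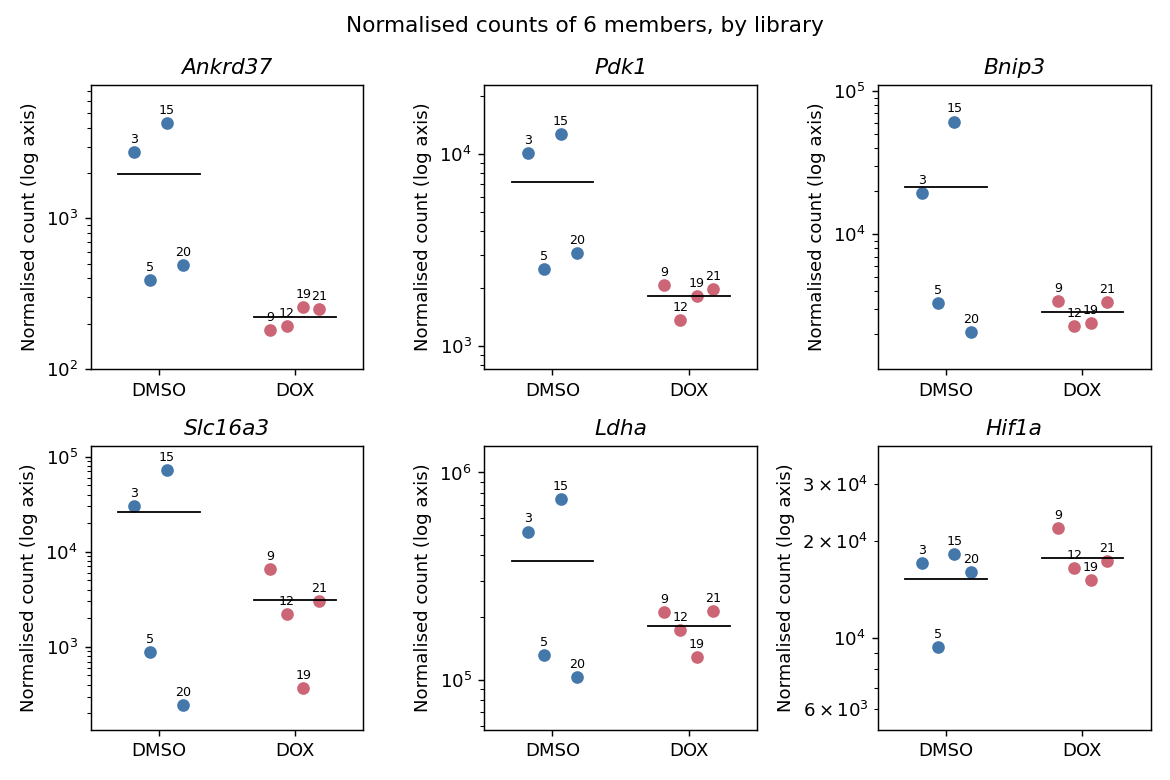
Normalised counts of Ankrd37, Pdk1, Bnip3, Slc16a3, Ldha and Hif1a on a log axis, with 1 dot for each library (numbers are library numbers, blue DMSO, red DOX) and a bar at the arithmetic mean of each group (n = 4). DMSO 3 and DMSO 15 stand above all other libraries for each of these genes except Hif1a, for which DOX 9 is highest.

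For carriers across the plasma membrane, the lactate exporter Slc16a3 (MCT4; chromosome 11, 120948484 to 120959000) varied most. It had 30064, 883, 72569 and 242 normalised counts in DMSO 3, 5, 15 and 20, and 6626, 2230, 371 and 3061 in DOX 9, 12, 19 and 21. The lowest library was a DMSO library, 300-fold below the highest, which was also DMSO. With an SE of 1.30 the log2 fold change came to -3.08 (DESeq2 unadjusted p = 0.0177, adjusted p = 0.781), and without DMSO 15 it was -1.75. It was -3.10 in edgeR, -1.22 in limma-voom and -1.15 as a difference of log2(TPM + 1). The glucose importers Slc2a1 (GLUT1) and Slc2a3 (GLUT3) had log2 fold changes of -0.31 and -1.30, Slc2a1 at 79.9 TPM and Slc2a3 at 5.88 TPM on average.

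Glycolytic enzymes were among the most abundant members. On the per-length scale, taking for each gene the transcript with the highest mean TPM, means over the 8 libraries were 1409 TPM for Ldha, 838 for Gapdh, 808 for Pkm, 772 for Aldoa and 742 for Eno1, while Bnip3 stood at 152 and Ankrd37 at 26.7. Of the 15 enzymes 14 had a log2 fold change below 0 (median -0.88), and the median without DMSO 15 was -0.23 against -0.03 for all genes. DESeq2 called 0 of them, with 1 at an unadjusted p under 0.05, and edgeR and limma-voom each called 0 with 0 under 0.05.

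Ldha, which turns pyruvate into lactate (chromosome 7, 46842274 to 46855627), had 519192, 132263, 747891 and 103626 normalised counts in DMSO 3, 5, 15 and 20. In DOX 9, 12, 19 and 21 they were 212527, 174088, 128488 and 214193. All 4 DOX libraries sat inside the DMSO range, far below DMSO 3 and DMSO 15 and, for DOX 19, just below DMSO 5. With an SE of 0.63 the log2 fold change came to -1.04 (DESeq2 and edgeR adjusted p = 0.999 each), and without DMSO 15 it was -0.46.

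DMSO 3 and DMSO 15 lay above every other library for 12 of the 15 enzymes. The exceptions were Hk1, Hk2 and Eno2. At the entry of the pathway Hk1 (chromosome 10, 62268855 to 62379920) had 15461, 12169, 18060 and 12115 normalised counts in DMSO 3, 5, 15 and 20 and 18962, 14598, 20462 and 12705 in DOX 9, 12, 19 and 21. The 8 libraries were within 1.69-fold of each other (log2 fold change 0.21; DESeq2 adjusted p = 0.999), and the inducible Hk2 ranged from 791 in DMSO 20 to 3838 in DOX 9 (log2 fold change -0.24). The isomerase Gpi1 and both phosphofructokinases, Pfkl and Pfkp, had log2 fold changes of -1.16, -0.88 and -0.72. Triosephosphate isomerase, Tpi1, was the enzyme with the smallest p: it had 41027 and 75569 normalised counts in DMSO 3 and DMSO 15 and 9548 to 19737 in the other 6 libraries (log2 fold change -1.42; DESeq2 unadjusted p = 0.0351, adjusted p = 0.874).

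For aldolase, Aldoa had a log2 fold change of -0.71, and the low-abundance Aldoc -2.22 with 0 counts in DOX 19. In the later steps of the pathway the log2 fold changes were -0.65 for Gapdh, -1.35 for Pgk1, -0.97 for Pgam1, -0.88 for Eno1, -0.40 for the neuronal enolase Eno2 and -0.33 for Pkm, and all of these overlapped between the groups. Eno2, too, had 0 counts in DOX 19. How reads shared with near-identical gene copies were counted was not given in the sources used here, which leaves enzymes with such copies, Gapdh among them, uncertain.

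Regulators of glycolysis did not move as 1 group. Pdk1, a kinase that restrains the entry of pyruvate into the citric acid cycle (chromosome 2, 71873215 to 71903858), had 10167, 2521, 12714 and 3065 normalised counts in DMSO 3, 5, 15 and 20 and 2090, 1373, 1834 and 1978 in DOX 9, 12, 19 and 21. It was the only other member for which all DOX libraries lay below all DMSO libraries, and the gap between DMSO 5 and DOX 9 was narrow. Such an arrangement was met by 184 of 15928 genes (1.16%), and by 2 of the 45 members. The opposite arrangement was met by 281 genes (1.76%) and by 0 members. Means were 7117 ± 5104 and 1819 ± 315 (SD, n = 4 each), with a fitted log2 difference of -1.97 and an SE of 0.554 (DESeq2 adjusted p = 0.13; exact permutation p = 0.0286). In the DESeq2 fits that left out 1 library its adjusted p was 0.00825 without DMSO 5 and 0.0171 without DMSO 20, but 0.202 to 0.484 without any 1 of the other 6. In edgeR its p was 0.00465 unadjusted and 0.999 adjusted.

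Pfkfb3, which makes the main activator of phosphofructokinase (chromosome 2, 11471430 to 11554071), had 8736, 8128, 11278 and 0 normalised counts in DMSO 3, 5, 15 and 20 and 5437, 4946, 0 and 2730 in DOX 9, 12, 19 and 21. Both libraries at 0 were those with few detected genes (log2 fold change over all 8 libraries -1.10, SE 2.35, DESeq2 adjusted p = 0.999). Among the other 6 the DMSO libraries lay above the DOX libraries, but the fit on these 6 did not call Pfkfb3 (log2 fold change -1.09, DESeq2 adjusted p = 0.198). Its relative Pfkfb4 had 134 to 402 normalised counts in the DMSO libraries and 156 to 454 in the DOX libraries (log2 fold change 0.23).

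**Figure D3:**
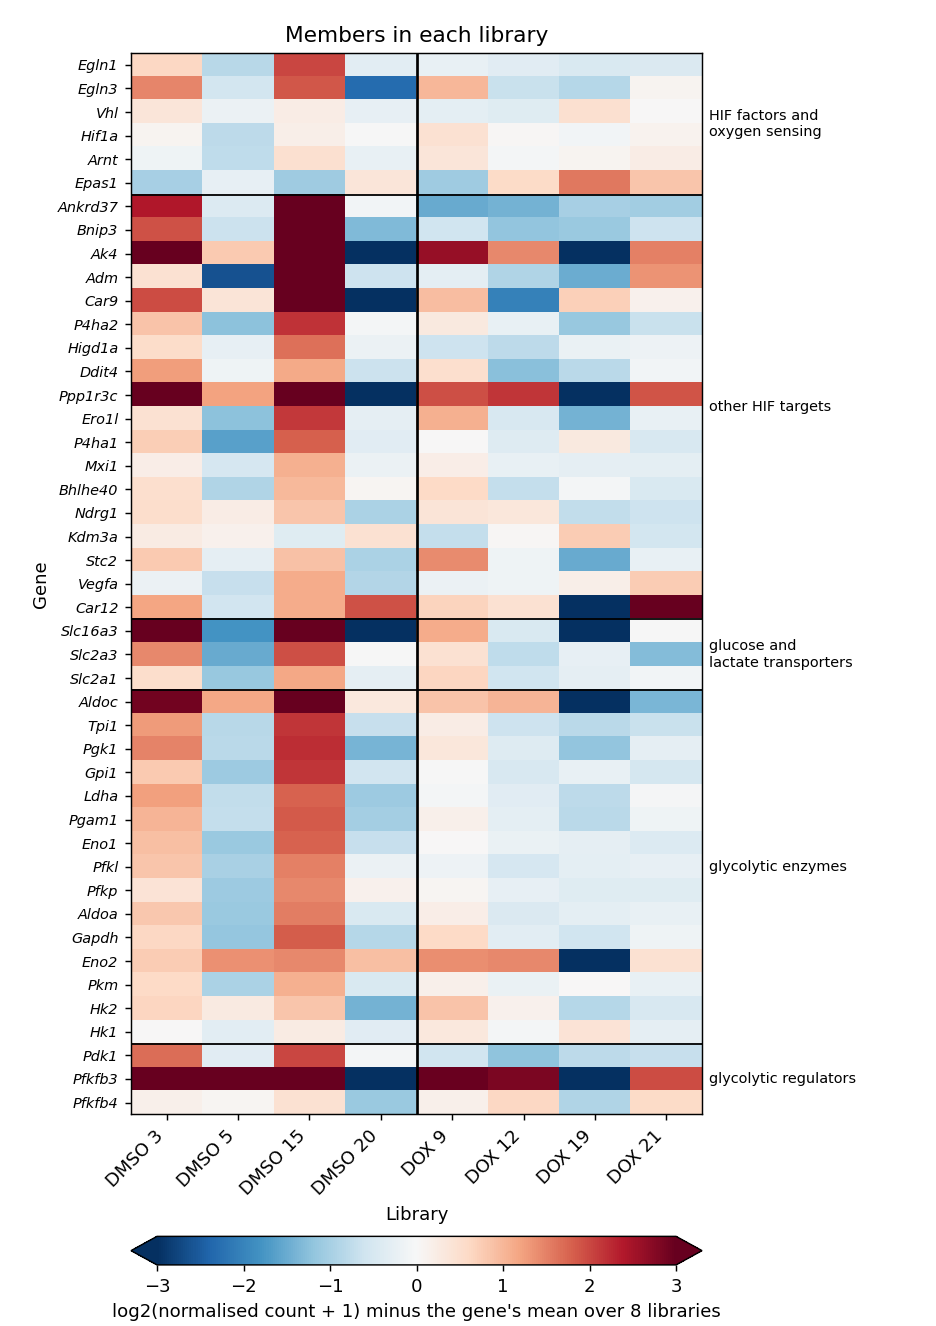
Heat map of the 45 members (rows, grouped by role) in the 8 libraries (columns). Colour gives log2(normalised count + 1) minus the gene's own mean over the libraries, cut at 3 in either direction. The DMSO 15 column is red through most rows and DMSO 3 is paler red, while DMSO 5 and DMSO 20 are mostly blue, and the dark blue cells of DMSO 20 and DOX 19 include the genes at 0 counts.

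Members also split inside the DMSO group. DMSO 15 was the highest of the 8 libraries for 35 of 45 members, including 13 of 15 glycolytic enzymes and 14 of 18 other HIF targets, whereas it was highest for 14.4% of all genes with a mean normalised count of at least 10. DMSO 3 and DMSO 15 both lay above every other library for 29 of 45 members, against 621 of 15928 genes (3.9%), a pair of libraries singled out after the values were seen. DMSO 5 was among the 2 lowest libraries for 22 members, DMSO 20 for 22 and DOX 19 for 23. Together the members took 3.07% of the counts in DMSO 15 and 1.83% in DMSO 3, but 0.709% in DMSO 5 and 0.705% in DMSO 20, with DOX libraries between these pairs at 0.864% to 1.19%.

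DMSO libraries therefore varied more than DOX libraries. The SD of log2 normalised counts was larger in DMSO for 36 of 45 members, compared with 62.3% of all genes. Its median over the members was 1.20 in DMSO and 0.53 in DOX, where all genes had 0.64 and 0.51. For the enzymes alone it was 1.35 in DMSO and 0.35 in DOX. DMSO 15 was also highest for 13 of 28 further hypoxia pathway genes, but for only 4 of 32 further genes of glucose metabolism, below its share of all genes. The SD was larger in DMSO for 21 of the former and 24 of the latter.

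DMSO 15 also differed in markers of cell types. Its 8 stromal markers summed to 2674 TPM, against 273 to 969 in the other DMSO libraries and 510 to 886 in DOX, and 5 of the 8 were at 1 TPM or more in every library. Col1a1, Col1a2, Col3a1, Dcn, Lum and Postn were highest there. Pdgfra (12.2 TPM) was higher in every library but DOX 19, and Pdgfrb (163 TPM) was higher in 4 libraries. Dcn and Lum were at 0 in 1 library each, DMSO 20 and DOX 19. Its epithelial sum of 561 TPM was the lowest of the 8 libraries. DMSO 3, the other library with high member levels, had the highest epithelial sum, 2429 TPM. The sum of collecting duct markers was lowest in DMSO 15, at 30.3 TPM, and highest in DMSO 5 at 267 TPM, and DOX libraries held 42.5 to 132 TPM. Gata3 and Tfcp2l1 were each lowest in DMSO 15. Aqp3, Scnn1b, Scnn1g, Calb1, Ret, Wnt11 and Elf5 were lower in at least 1 other library, and Aqp2 was at or near 0 in all libraries. Summed endothelial markers were 167 to 535 TPM in DMSO and 212 to 904 in DOX. Plvap alone was 77.5 to 434 TPM in DMSO and 134 to 703 in DOX. Of the 8 endothelial markers, 4 (Flt1, Emcn, Egfl7 and Plvap) were at 1 TPM or more in every library. The defining markers Pecam1, Cdh5 and Kdr, and also Tek, were each under 1 TPM in all 8 libraries. Macrophage markers were low, with sums of 15.9 to 29.4 TPM in DMSO and 0.0068 to 12.2 in DOX. The sums did not overlap between the groups, but the levels of each single marker did. Of the 7 measured, C1qa and C1qb were at 0 in all libraries but DMSO 15, and no marker was at 1 TPM or more in every library. DMSO 15 was also 1 of the 2 male libraries, and in a fit with library sex as covariate the median log2 fold change was -0.61 for the enzymes and -0.63 for the other targets. The part of stromal, macrophage or epithelial content in the member levels was not tested.

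Glycolytic enzymes and other HIF targets were then set against each other within each library. The level of a list was the average of log2(normalised count + 1) over its genes. The enzymes averaged 13.98 ± 1.10 in DMSO and 13.20 ± 0.759 in DOX, and the other targets 11.31 ± 1.56 and 10.59 ± 0.934 (SD, n = 4 each). In the order DMSO 3, 5, 15 and 20 the enzyme levels were 14.54, 13.05, 15.25 and 13.07 and the target levels 12.16, 10.49, 13.02 and 9.59. In DOX 9, 12, 19 and 21 the enzyme levels were 13.92, 13.49, 12.14 and 13.26 and the target levels 11.32, 10.65, 9.26 and 11.14. The 2 libraries with the highest enzyme level, DMSO 15 and DMSO 3, also had the highest target level. DOX 19 was lowest in both, with Aldoc, Eno2, Ak4, Ppp1r3c and Car12 at 0 counts. Over the 13 enzymes and 14 targets with at least 10 counts in all libraries DOX 19 was no longer lowest. There the lowest levels were those of DMSO 5, 13.67 for the enzymes and 11.35 for the targets, and DMSO 15 and DMSO 3 were still highest in both.

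Enzymes exceeded targets by 2.66 ± 0.562 in DMSO and by 2.61 ± 0.345 in DOX on the log2 scale, a difference of -0.05 between the groups against a pooled SD of 0.466. It lay between -0.20 and 0.22 when any 1 library was left out. Over the 13 enzymes and 14 targets with at least 10 counts in all libraries the sign turned. There the enzymes exceeded the targets by 2.29 ± 0.135 in DMSO and by 2.53 ± 0.130 in DOX (SD, n = 4 each), a difference of 0.23 against a pooled SD of 0.133, and 3 of the 4 DOX libraries lay above all DMSO libraries. The size and sign of this contrast thus depended on whether genes with few or 0 counts were included, and lists of this kind were given no p.

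**Figure D4:**
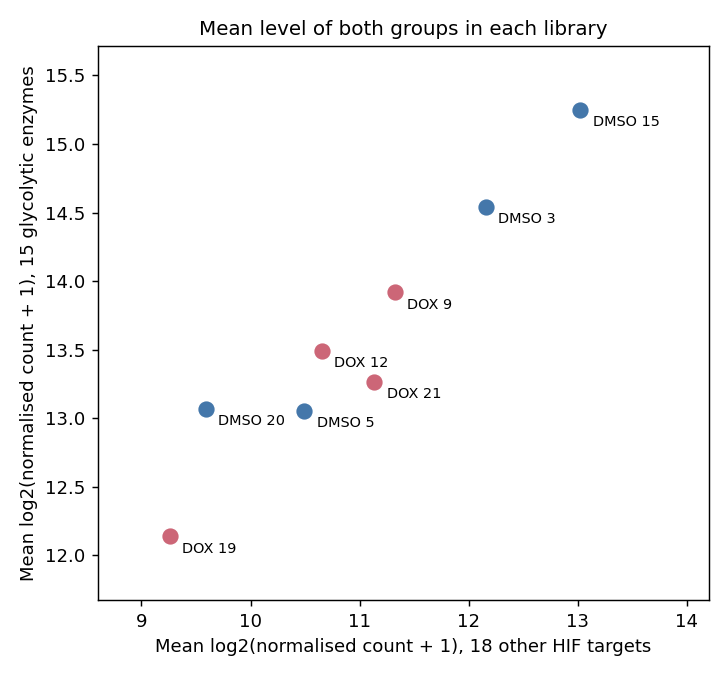
Mean log2(normalised count + 1) of 15 glycolytic enzymes (vertical axis) against that of 18 other HIF targets (horizontal axis), 1 point for each library (blue DMSO, red DOX). DMSO 15 and DMSO 3 lie at the upper right at 13.02 and 12.16 on the horizontal axis, and the DOX points fall within the horizontal range of 9.26 to 11.32.

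Wider lists held no called gene. Of 28 further hypoxia pathway genes 25 had a log2 fold change below 0 (median -0.36), with 5 at an unadjusted DESeq2 p under 0.05 (4 lower, 1 higher; 4.67% of all genes in either direction) and 0 called. The edgeR test and limma-voom also called 0 of them, with 4 and 3 at an unadjusted p under 0.05. Fam162a, a mitochondrial HIF target, had 17258, 9463, 47916 and 5576 normalised counts in DMSO 3, 5, 15 and 20 and 4935, 4968, 5834 and 7062 in DOX 9, 12, 19 and 21 (log2 fold change -1.81; DESeq2 adjusted p = 0.424). DMSO 20 lay within the DOX range. Its log2 fold change was -0.91 without DMSO 15, and without DMSO 20 it was -2.13 (DESeq2 adjusted p = 0.0373). Ankzf1, a factor of ribosome quality control, was instead highest in DMSO 20, with 4515, 6971, 3836 and 7644 in DMSO and 3227, 4429, 3908 and 3044 in DOX in the same order (log2 fold change -0.65; DESeq2 adjusted p = 0.859).

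Of 32 further genes of glucose metabolism with counts, 19 lay below 0 and 13 above (median -0.20), with 1 at an unadjusted DESeq2 p under 0.05 and 0 called. The edgeR test and limma-voom called 0 as well, with 2 and 1 at such a p. The 1 gene of DESeq2, the gluconeogenic Pck1, was scarce and had 147, 69.5, 26.1 and 24.3 normalised counts in DMSO 3, 5, 15 and 20 and 0.849, 2.13, 0 and 13.6 in DOX 9, 12, 19 and 21 (log2 fold change -4.02; DESeq2 adjusted p = 0.28). All DOX libraries were lower, most of them at counts near the detection limit. Such an arrangement was met by 1.16% of all genes with a mean normalised count of at least 10. In 2 genes of the wider lists, named after their values were seen, all DOX libraries lay above all DMSO libraries. They were 1 of 28 hypoxia pathway genes and 1 of 31 glucose metabolism genes with a mean normalised count of at least 10. Among all 15928 genes at that level the share was 1.76%. Pdk4, a relative of Pdk1, had 546 to 686 normalised counts in DMSO against 849 to 907 in DOX 9, DOX 12 and DOX 21 and 5379 in DOX 19 (log2 fold change 1.71; no p in DESeq2; edgeR unadjusted p = 0.0278, adjusted p = 0.999). The oxygen sensor Egln2 had 2502 to 3057 in DMSO and 3150 to 4391 in DOX (log2 fold change 0.38; DESeq2 unadjusted p = 0.0356, adjusted p = 0.876). Pfkfb2, another enzyme that sets the phosphofructokinase activator, had 1431, 2617, 719 and 7802 in DMSO and 1543, 1479, 882 and 1339 in DOX in that order, with the highest and the lowest value both in DMSO (log2 fold change -1.26; DESeq2 adjusted p = 0.986). Without DMSO 20 the log2 fold change of Pfkfb2 was -0.27, and without both DMSO 20 and DOX 19 it was -0.097.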

How the data were processed

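Poly-A selected SMART-Seq v4 libraries were sequenced, aligned with STAR and counted on the BasePair platform by the authors, and featureCounts and DESeq2 are also named in the submitters' processing notes; tool versions and the alignment and counting settings were not given in the sources used here. The thresholds and the alpha of DESeq2 below are those of the study's methods. The deposited counts are whole numbers of reads per RefSeq transcript on mm10. The deposited TPM was scaled by the authors for transcript length and library total. Deposited FPKM values were not used. Counts and TPM were summed by gene symbol. Reads in several isoforms appeared to be counted once for each, so summed values of 14 members overstate their level (for Vegfa the summed count was 8.11 times that of its most counted transcript).

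DOX and DMSO were compared over all genes by the DESeq2 1.42.0 Wald test (R 4.3.3; no covariate, independent filtering at alpha 0.1, filtering by Cook's distance, fold changes not shrunken, Benjamini-Hochberg adjustment), with edgeR 4.0.16 quasi-likelihood and limma 3.58.1 voom beside it, and for single genes by exact two-sided permutation of log2(normalised count + 1) over 70 assignments. The DESeq2 and edgeR fits were tested on simulated data. The simulated spread was set by a formula rather than estimated from these libraries, so the test does not give error rates for them. The 45 genes, their role groups and the further lists were chosen with earlier results of these data known, so lists received counts and medians only. Genes with values in each library were Ankrd37, called members, the 3 lower and 3 higher members with the smallest p, the member with the highest summed TPM in each role group, Hif1a, Ldha and the 2 genes with the smallest p of each further list. Gene coordinates are those of RefSeq on GRCm38.p6, the assembly of mm10, and Ero1l was matched as Ero1a. No 2 of the 8 libraries were duplicates (347 to 1086 for chi-square over its degrees of freedom in 28 pairs), so each counted as 1 sample. Whether cultures shared an animal was not given. If cultures of the same group did, p-values would be too small, and if cultures of both groups did, a pairing was ignored. Alternatives were TMM size factors, count filters, both DESeq2 filters off, low gene detection or sex as covariate, 1 transcript per gene, TPM, other thresholds, and leaving out libraries; the count of genes below 0 was compared across them only after the data were seen.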

Additional observations from a re-analysis of the deposited data

Results flagged for a closer look

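A library was looked at again where its gap to the nearest library of its group took a larger share of the group's range on the log2 scale than Dixon's 95% critical value for 4 values. This singled out 6 of 102 groups tested, where chance gives about 1 in 20, or 5.1. All 6 came from libraries with few detected genes and rest on counts of 0. In DOX 19, Ak4 (gap 0.891 of the range; other DOX libraries 741 to 1666 normalised counts), Ppp1r3c (0.971; 422 to 505), Eno2 (0.893; 295 to 586) and Pfkfb3 (0.920; 2730 to 5437) had 0 counts. In DMSO 20, Pfkfb3 had 0 counts against 8128 to 11278 in the other DMSO libraries (0.965). The mean log2 level of the 3 glycolytic regulators in DOX 19, 6.04 against 10.38 to 10.59 in the other DOX libraries (0.953), includes Pfkfb3 at 0. The part of low gene detection in these values was not tested.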

How the results depend on the processing

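With 1 member called by DESeq2, edgeR and limma-voom called 0, the fit without DMSO 20 and DOX 19 called 3 (Ankrd37, Bnip3 and Pdk1), and leaving out 1 library gave 0 to 3: 0 without DMSO 3, DMSO 15, DOX 9, DOX 12, DOX 19 or DOX 21, 2 without DMSO 5 and 3 without DMSO 20. Calls over all genes moved too, from 25 to 51 without DMSO 20 and DOX 19, 48 without DMSO 20, 17 without DMSO 5 and 75 without DMSO 15 (14 to 75 when 1 library was left out). The remaining 10 alternatives called 1. Ankrd37 had a log2 fold change of -3.18 in edgeR and -2.60 in limma-voom, both at an adjusted p of at least 0.999, and -3.51 to -2.45 when 1 library was left out. Vegfa turned from 0.14 to -0.059 without DMSO 20 and DOX 19, and ranged from -0.10 to 0.76 when 1 library was left out (-0.04 without DMSO 5, -0.08 without DMSO 20, -0.10 without DOX 21). For all but Vegfa, the named genes kept their direction in the alternatives that gave a value. Pck1 moved most, from -4.02 to -0.57 as a difference of log2(TPM + 1), where the added 1 weighs heavily on a scarce gene. It was between -5.96 and -3.61 when 1 library was left out, and it had a value in 16 alternatives. Without DMSO 15 the median of the enzymes moved from -0.88 to -0.23 and that of the other HIF targets from -0.82 to -0.20. The small median of the oxygen-sensing genes (0.08) ranged from -0.05 to 0.17. The difference between enzymes and other targets turned from -0.05 (pooled SD 0.466) to 0.23 (pooled SD 0.133) when genes under 10 counts in any library were left out, which removes the genes at 0. It also turned without DMSO 20 (0.22), without DOX 21 (0.11), without DMSO 20 and DOX 19 (0.13) and on log2(TPM + 1) (0.09), and kept its sign in the other alternatives. TMM scaling moved the median of all genes by less than 0.1. The cause was not tested. No paired analysis was possible because the library numbers in the titles are not shared between the groups. The common biological coefficient of variation was 0.766 in edgeR. Members at 0 counts in DMSO 20 or DOX 19 had them in the libraries with the fewest detected genes, and the part of detection was not tested.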
